A study of Rattus norvegicus with 24 samples.

Results

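A set of classical genes of blood vessel endothelium were followed through the lungs of rats exposed to WCSC, a condensate of whole-cigarette smoke. The 9 genes were Pecam1, Cdh5, Kdr, Tek, Tie1, Vwf, Ednrb, Aplnr and Cldn5, chosen by symbol from the 16881 gene symbols of the count files. All 9 were present, and all 9 were among the 11426 genes that had enough reads to be tested. The series held 24 libraries of lung from rats labelled wild type (WT), 3 in each of 8 groups: a control and 5, 10 and 20 mg/mL of WCSC, each at 6 days and at 12 days. Neither the labels nor the files give strain, sex, age, route of exposure or what the controls received. The labels number the replicates of a group without saying that they were separate animals, so the p-values measure the spread between these samples, which may be technical.

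Endothelial cells line every blood vessel, and in the lung they form the thin capillary sheet against which the alveolar epithelium exchanges gas. Kdr (VEGF receptor 2) and the Tie receptor pair, Tek (Tie2) and Tie1, are receptor tyrosine kinases that carry VEGF and angiopoietin signals for vessel growth and quiescence. Aplnr and Ednrb are G protein-coupled receptors, for apelin and for the endothelins; in lung, Aplnr marks general capillary cells and Ednrb marks the large gas-exchange capillary cells called aerocytes. Cdh5 (VE-cadherin), Cldn5 and Pecam1 hold neighbouring endothelial cells together and help to set how leaky the vessel is, and Vwf is the clotting protein that endothelial cells store and release.

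Many endothelial promoters are bound by transcription factors of the ETS family, whose DNA sites share the core GGAA, or TTCC when read on the other strand. Of the 9 genes, 4 (Cldn5, Ednrb, Kdr and Tie1) were matched by symbol in the RefSeq promoter table of the rat build GRCr8. The 250 bases before the annotated start are printed for 3 of them, because they span the range of core counts found; capitals mark GGAA and TTCC. The windows lie at chr14:32571813-32572062 (+ strand) for Kdr, chr5:137304982-137305231 (- strand) for Tie1 and chr11:95718599-95718848 (- strand) for Cldn5, and each is written 5′ to 3′ on the strand of its gene.
Kdr: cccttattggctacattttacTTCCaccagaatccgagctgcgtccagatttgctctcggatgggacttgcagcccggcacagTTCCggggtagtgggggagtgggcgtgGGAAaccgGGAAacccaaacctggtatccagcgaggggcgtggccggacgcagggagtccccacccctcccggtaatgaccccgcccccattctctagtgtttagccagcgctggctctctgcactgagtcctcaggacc
Tie1: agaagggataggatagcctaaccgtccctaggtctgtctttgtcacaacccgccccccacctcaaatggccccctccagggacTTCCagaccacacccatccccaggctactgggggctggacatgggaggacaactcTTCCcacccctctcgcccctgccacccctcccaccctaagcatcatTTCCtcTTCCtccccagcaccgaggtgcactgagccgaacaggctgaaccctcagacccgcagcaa
Cldn5: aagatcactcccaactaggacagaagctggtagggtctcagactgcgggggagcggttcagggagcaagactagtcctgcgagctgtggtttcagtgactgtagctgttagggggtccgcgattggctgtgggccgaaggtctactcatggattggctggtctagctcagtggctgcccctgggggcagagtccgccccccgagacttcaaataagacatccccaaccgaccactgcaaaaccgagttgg
Counting both strands, the core was found 4 times in Kdr, 4 times in Tie1, 2 times in Ednrb and 0 times in Cldn5. At least 1 copy stood in 93.2% of the 33469 promoter windows of the same length (median 3 copies), and 4 or more stood in 34.7%. The longer motif AGGAAG, which contains the core, stood on either strand in 1 of the 4 windows (Tie1) and in 29.5% of all windows. A GC box (GGGCGG, either strand) stood in 3 of the 4 and in 30.5% of all windows, and TATAAA in 0 of the 4 and in 12.9% of all. These matches are descriptions of letters in a window and were not tied to the expression values.

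The lung itself was well represented. Ager of alveolar type I cells ranged from 1960 to 7890 CPM (read counts scaled to library size after TMM adjustment), Sftpc of type II cells from 3250 to 14300 CPM, and Scgb1a1 of club cells from 3100 to 18400 CPM. Total counts per library ranged from 4.80e+06 to 1.11e+07, and the read counts of the 9 genes in single libraries from 117 to 11435. A single library stood apart: replicate 2 of 20 mg/mL at 12 days. Its 10 heart muscle genes summed to 3300 CPM, against 21.9 to 218 CPM in the other 23 libraries, and Myh6, at up to 495 CPM, was listed at 0 in 17 of the 24 libraries. Its fibroblast and smooth muscle sums were also the highest of all, and its type I and type II sums the lowest. The second library to bear in mind, replicate 3 of 20 mg/mL at 6 days, had the next highest heart muscle sum (218 CPM) and the highest macrophage sum (620 CPM). In whole tissue, fewer endothelial cells and less RNA per cell cannot be told apart.

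No dose of WCSC, at either day, moved any of the 9 endothelial genes past the threshold of an adjusted p of 0.05. In the edgeR quasi-likelihood fit of all 24 libraries, adjusted p-values of the 9 genes in the 6 comparisons of a dose with the control of its day lay between 0.896 and 1.000. The share of all tested genes called was 0% in each of these 6 comparisons as well. At an unadjusted p below 0.05 there was 1 of the 9 at 20 mg/mL and 6 days (Tie1), 1 at 20 mg/mL and 12 days (Aplnr), and 0 in each of the other 4 comparisons. Over all tested genes that share was 4.07% and 3.68% in the first 2 and 1.25% to 4.69% in the other 4. An F test of any difference among the 8 groups gave an adjusted p of 0.999 for each of the 9, where again 0% of genes were called. DESeq2 and limma voom with sample quality weights, run on the same counts, also called 0 of the 9 genes in every comparison, although they called up to 51 genes in all (DESeq2, any difference among the 8 groups). The smallest adjusted p of any of the 9 under any alternative was 0.091, for Vwf at 10 mg/mL and 6 days with limma voom.

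At 6 days the log2 fold changes against control had no common direction. At 5 mg/mL they were positive for 3 genes and negative for 6 (median -0.06, range -0.49 to 0.29). At 10 mg/mL 5 were positive and 4 negative (median 0.13, range -0.39 to 0.31). At 20 mg/mL 2 were positive, Cdh5 and Ednrb, and 7 negative (median -0.14, range -0.54 to 0.88). Over all genes tested the medians were -0.01, 0.00 and -0.00.

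At 12 days more of the values were negative. The split was 2 positive and 7 negative at 5 mg/mL (median -0.20), 4 and 5 at 10 mg/mL (median -0.10), and 0 and 9 at 20 mg/mL (median -0.29). Over all genes tested the medians were -0.00, 0.01 and 0.01. The 3 doses of a day share their 3 control libraries, so their signs are not independent of each other. The 20 mg/mL split rests on the library with the heart muscle genes, as shown further on.

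**Figure D1:**
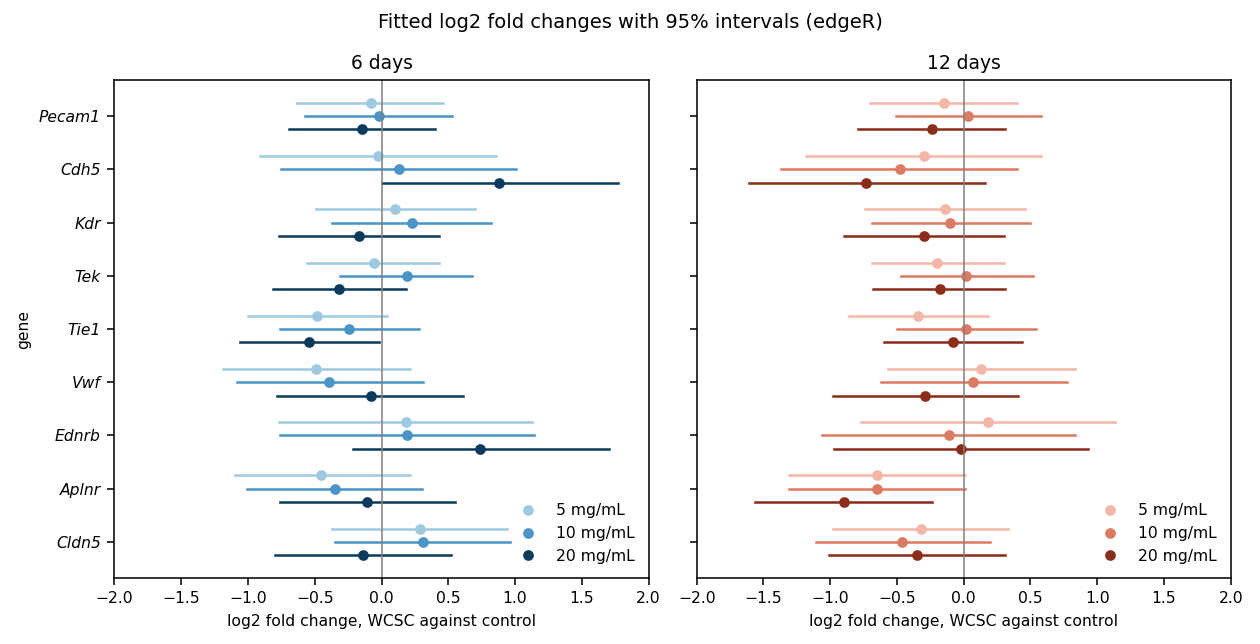
Fitted log2 fold change of WCSC against the control of the same day (x axis) for each endothelial gene (y axis), at 6 days on the left and 12 days on the right. Points are the estimates and bars their 95% intervals, shaded by dose; 2 of the 54 intervals, Tie1 at 20 mg/mL and 6 days and Aplnr at 20 mg/mL and 12 days, lie wholly below 0 before any correction for the number of genes.

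Complete separation of the 3 exposed from the 3 control libraries was also counted. At 6 days, 0 of the 9 genes had all 3 exposed libraries above all 3 controls at 5, 10 or 20 mg/mL, where 4.17%, 2.98% and 4.07% of all tested genes did. In the lower direction the counts for the same doses were 0, 0 and 1 (Tie1 at 20 mg/mL), against 4.13%, 3.24% and 4.67% of all genes. At 12 days, 0 of the 9 were wholly higher at any dose, against 3.86%, 3.91% and 3.57% of all genes. A single gene, Aplnr in each case, was wholly lower for each of the 3 doses, against 3.93%, 4.55% and 4.09% of all genes. A count of 1 in 9 is too small to be read against these shares.

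Among the receptors, Aplnr had the values furthest from its controls. At 12 days it stood at 655, 365 and 441 CPM in the controls, 314, 317 and 300 CPM at 5 mg/mL, 308, 287 and 334 CPM at 10 mg/mL, and 307, 145 and 331 CPM at 20 mg/mL. All 9 exposed libraries of that day lay below all 3 controls, a pattern found in 0.429% of the tested genes (49 of 11426). Aplnr was picked out here for that pattern, which is therefore a description. The log2 fold changes were -0.65 (SE 0.32), -0.65 (SE 0.32) and -0.90 (SE 0.32) at the 3 doses, that is 0.638, 0.637 and 0.537 times the control. At 20 mg/mL the 95% interval ran from -1.56 to -0.24, the unadjusted p was 0.00996 and the adjusted p 0.998 (edgeR). The slope over dose was -0.39 per 10 mg/mL (SE 0.15, adjusted p 0.991, edgeR), in a comparison that called 0% of genes.

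Single libraries carried much of the size of the Aplnr values. Without replicate 1 of the 12-day controls, the highest of all 24 libraries, the log2 fold changes became -0.38, -0.38 and -0.63, and without replicate 2 of 20 mg/mL the last became -0.61. They were negative at all 3 doses under every alternative run. At 6 days, Aplnr was at 366, 416 and 423 CPM in the controls, 259, 228 and 398 CPM at 5 mg/mL, 153, 374 and 417 CPM at 10 mg/mL, and 303, 425 and 391 CPM at 20 mg/mL. There the exposed and control ranges overlapped at each dose, with log2 fold changes of -0.45, -0.35 and -0.11. Its ligand Apln was tested too, with log2 fold changes of 0.19, 0.16 and -0.16 at 6 days and 0.04, 0.07 and -0.32 at 12 days.

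Tie1, the orphan partner of Tek, was the other receptor with a separated group. At 6 days it stood at 164, 238 and 184 CPM in the controls and at 127, 142 and 134 CPM at 20 mg/mL, so all 3 exposed libraries lay below all 3 controls. The lower doses overlapped the controls, with 146, 86.3 and 187 CPM at 5 mg/mL and 111, 166 and 219 CPM at 10 mg/mL. The log2 fold changes were -0.48, -0.24 and -0.54 (SE 0.25 each), and the adjusted p at 20 mg/mL was 1.000 (edgeR, unadjusted p 0.043). Without control replicate 2 the value at 20 mg/mL was -0.37. At 12 days no such separation remained: controls were at 192, 158 and 221 CPM and the 20 mg/mL libraries at 177, 160 and 204 CPM, a log2 fold change of -0.08. The difference of the 20 mg/mL effect between the days was 0.46 (SE 0.35, adjusted p 1.000, edgeR).

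Neither Tek nor Kdr had a group wholly apart from its controls. Tek, the angiopoietin receptor, had its highest group mean at 10 mg/mL and 6 days (260 ± 29.7 CPM, SD, n = 3) and its lowest at 20 mg/mL and 6 days (183 ± 54.1 CPM, SD, n = 3). Its 6 log2 fold changes lay between -0.32 and 0.19. Kdr, which binds Vegfa, was at 1200, 793 and 650 CPM in the 6-day controls and 989, 921 and 446 CPM at 20 mg/mL. At 12 days the Kdr controls were tight, at 1050, 1010 and 944 CPM, and the 20 mg/mL libraries were at 942, 496 and 996 CPM. The 2 low Kdr values, 446 and 496 CPM, were the lowest of all 24 and belonged to the 2 libraries singled out above. The log2 fold changes of Kdr lay between -0.30 and 0.23.

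Ednrb, the aerocyte receptor, was among the most variable of the 9. At 6 days it read 116, 95.9 and 189 CPM in the controls, 56.1, 187 and 211 CPM at 5 mg/mL, 157, 105 and 197 CPM at 10 mg/mL, and 321, 222 and 129 CPM at 20 mg/mL. The 20 mg/mL libraries overlapped the controls through replicate 3, and the log2 fold change was 0.74 (SE 0.46, 95% interval -0.21 to 1.70, adjusted p 1.000, edgeR). At 12 days the controls were at 138, 225 and 191 CPM and the 20 mg/mL libraries at 270, 61.3 and 213 CPM, with a log2 fold change of -0.02. Without replicate 2 that value was 0.39. The other 12-day groups overlapped the controls, with 190, 216 and 219 CPM for the 5 mg/mL libraries and 238, 132 and 141 CPM for those given 10 mg/mL. Its ligand gene Edn1 was near the limit of detection, with 0 to 3.85 CPM.

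Among the junction genes, Cdh5 spanned the widest range of the 9, from 22.5 to 160 CPM (7.14-fold). At 6 days the controls were at 49.6, 75.8 and 66.7 CPM, the 5 mg/mL libraries at 33.5, 67.1 and 88.3 CPM, the 10 mg/mL libraries at 48.2, 65.9 and 95.9 CPM, and the 20 mg/mL libraries at 160, 133 and 61.3 CPM. Replicates 1 and 2 at 20 mg/mL were above every control and replicate 3 was not. The log2 fold change was 0.88 (SE 0.43, 95% interval -0.00 to 1.77, adjusted p 1.000, edgeR). The slope over dose was 0.47 per 10 mg/mL (SE 0.20, adjusted p 1.000, edgeR), in a comparison that called 1 gene, Cebpd, or 0.00875% of those tested. At 12 days Cdh5 was at 153, 94.6 and 108 CPM in the controls, 120, 97.3 and 72.4 CPM at 5 mg/mL, 96.9, 77.9 and 79.7 CPM at 10 mg/mL, and 109, 22.5 and 83.2 CPM at 20 mg/mL. Group means stepped from 119 ± 30.8 CPM through 96.6 ± 24 and 84.9 ± 10.5 to 71.6 ± 44.6 CPM (SD, n = 3 each), each step smaller than the larger SD of the 2 groups it joins. The log2 fold changes were -0.30, -0.48 and -0.73 (SE 0.42 to 0.43), and the last was -0.30 without replicate 2.

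Cdh5 also had the largest difference of the 20 mg/mL effect between the days, -1.61 on the log2 scale (SE 0.60, 95% interval -2.86 to -0.36). Its unadjusted p was 0.014 and its adjusted p 1.000 (edgeR), in a comparison where 0% of genes were called. Without replicate 2 of 20 mg/mL at 12 days it was -1.19, and it was negative under every alternative run. The controls of the 2 days enter this value. Cdh5 controls at 12 days (94.6 to 153 CPM) lay wholly above those at 6 days (49.6 to 75.8 CPM), with a log2 fold change of 0.89 (SE 0.43, adjusted p 1.000, edgeR; 0% of genes called). Without the 8 libraries that detected fewest genes, 1 control of each day among them, it was 0.49, and the 6-day slope was 0.29. Replicates 1 and 2 of 5 and of 10 mg/mL at 6 days were among the 8, so this slope had only replicate 3 at these doses. Over all alternatives run the control difference lay between 0.49 and 1.03. It was the 1 gene of the 9 wholly higher in the 12-day controls, against 4.71% of all genes, and 0 of the 9 were wholly lower, against 4.21%. Of the 9, 8 had a positive log2 fold change between the controls (median 0.18, against -0.01 over all genes tested).

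Cldn5, the tight junction strand protein of endothelium, was at 546, 365 and 469 CPM in the 6-day controls, 701, 490 and 494 CPM at 5 mg/mL, 639, 614 and 453 CPM at 10 mg/mL, and 411, 561 and 281 CPM at 20 mg/mL. At 12 days it was at 790, 470 and 457 CPM in the controls, 459, 476 and 436 CPM at 5 mg/mL, 543, 379 and 328 CPM at 10 mg/mL, and 583, 219 and 543 CPM at 20 mg/mL. Every exposed group overlapped its controls. Control replicate 1 of day 12, at 790 CPM, was the highest of the 24 libraries for Cldn5 as it was for Aplnr. The log2 fold changes were 0.29, 0.31 and -0.14 at 6 days and -0.32, -0.46 and -0.35 at 12 days, with an SE of 0.32 each. Removing single libraries moved the 12-day values between -0.46 and -0.02 at 5 mg/mL and between -0.69 and -0.15 at 10 mg/mL. At 20 mg/mL they moved between -0.59 and -0.02.

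Pecam1, the CD31 adhesion molecule, had the narrowest range of the 9 over the 24 libraries, with 109 to 242 CPM (2.23-fold). Its group means lay between 166 ± 50.2 CPM (20 mg/mL, 12 days) and 201 ± 26.1 CPM (10 mg/mL, 12 days; SD, n = 3 each), a gap smaller than the larger of the 2 SDs. Its 6 log2 fold changes lay between -0.24 and 0.03 with an SE of 0.26, so that a fall to less than 0.579 times the control at 20 mg/mL and 12 days lay outside the 95% interval. Vwf, the clotting factor, was at 146, 284 and 209 CPM in the 6-day controls, 137, 95.7 and 223 CPM at 5 mg/mL, and 132, 134 and 223 CPM at 10 mg/mL. At 20 mg/mL it was at 181, 253 and 168 CPM. These groups overlapped, with log2 fold changes of -0.49, -0.39 and -0.08 (SE 0.34). At 12 days Vwf was at 259, 183 and 206 CPM in the controls, 221, 251 and 237 CPM at 5 mg/mL, 214, 158 and 310 CPM at 10 mg/mL, and 204, 95.1 and 233 CPM at 20 mg/mL. Its groups overlapped here too. The 12-day log2 fold changes were 0.13, 0.07 and -0.29, the last of which was 0.01 without replicate 2.

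**Figure D2:**
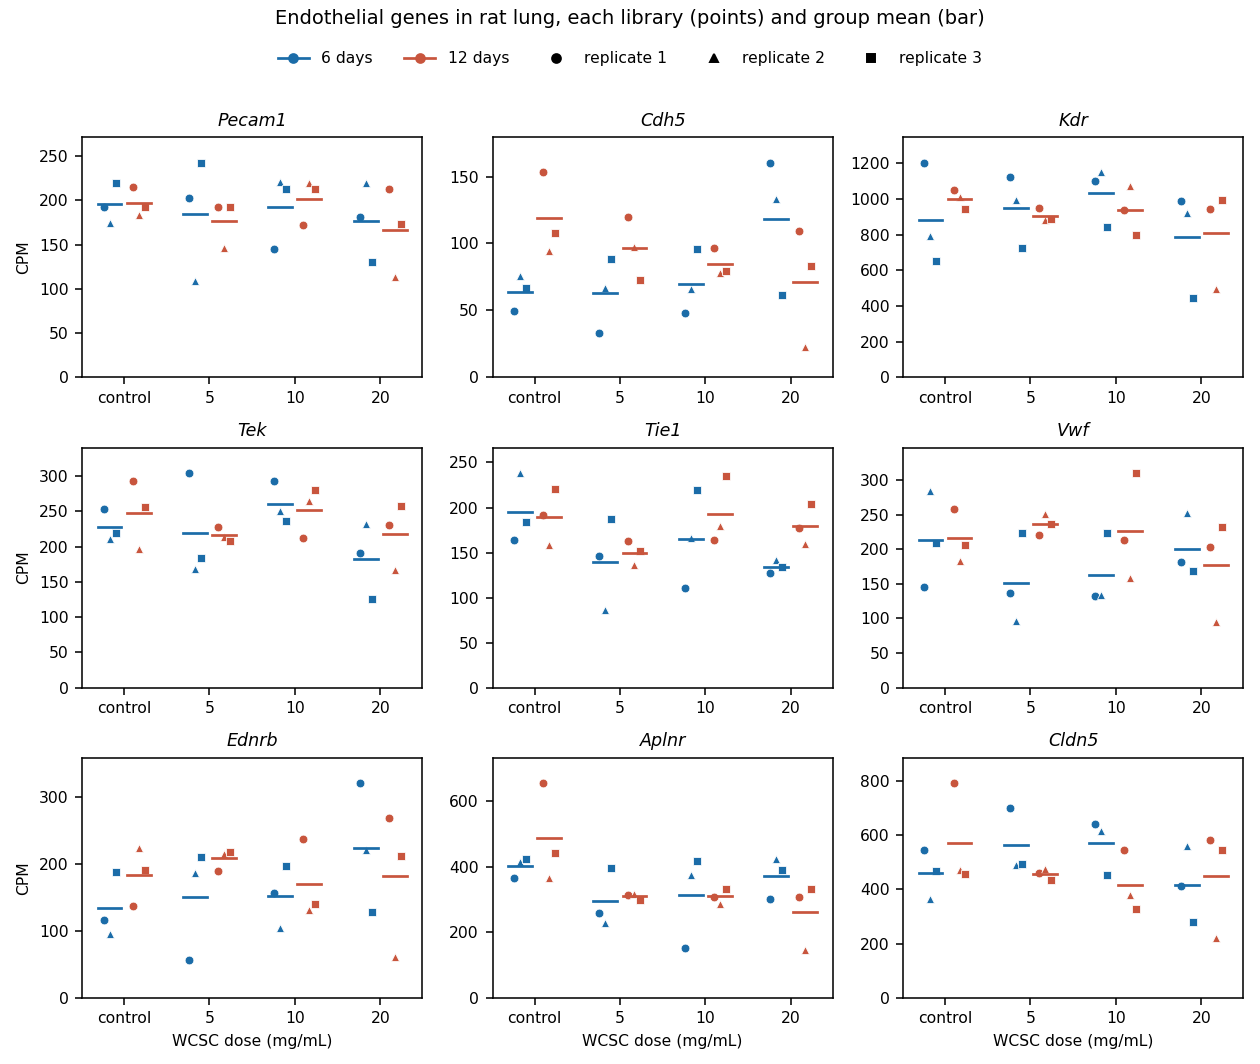
CPM (y axis, from 0) of each endothelial gene in every library by WCSC dose (x axis), with 6 days in blue and 12 days in red. Markers are single libraries, their shape gives the replicate, and the bar is the mean of 3; in Aplnr the 9 exposed libraries of day 12 lie below the 3 controls, and in all 9 panels the 12-day 20 mg/mL replicate 2 (triangle) is lowest of its group.

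The spread between replicates set what could be seen. The biological coefficient of variation that edgeR estimated was 0.213 for Tek, 0.222 for Tie1 and 0.233 for Pecam1. It was 0.251 for Kdr, 0.274 for Aplnr and for Cldn5, and 0.29 for Vwf. Cdh5 (0.362) and Ednrb (0.388) were the most variable, against medians of 0.208 and 0.207 in the 500 genes nearest in level to each. These 2 were also the genes with positive values at 20 mg/mL and 6 days, and the genes with the widest 95% intervals.

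The level of the 9 genes as a whole was then read in each library. Each gene's log2 CPM was centred on its own mean, and the 9 values were averaged in each library. This mean was lowest, at -0.94, in replicate 2 of 20 mg/mL at 12 days, where 0 of the 9 genes exceeded their own median. Next came replicate 3 of 20 mg/mL at 6 days, at -0.44, and replicate 2 of 5 mg/mL at 6 days, at -0.38. The highest value, 0.44, was that of replicate 1 of the 12-day controls, with 8 of the 9 genes above their median. The lowest and the highest library of all were thus an exposed and a control library of the same day.

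**Figure D3:**
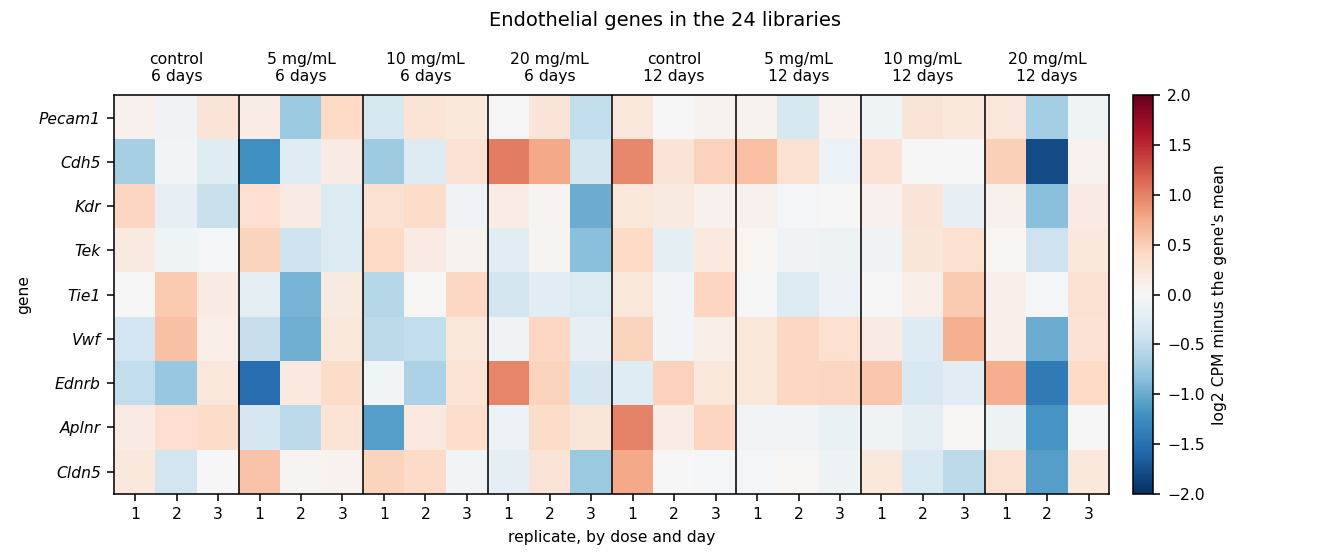
Log2 CPM minus the gene's own mean over the 24 libraries (colour, red above and blue below) for the 9 endothelial genes (rows) in each library (columns, replicates 1 to 3 of each dose and day). The column of replicate 2 at 20 mg/mL and 12 days is blue in 8 of the 9 rows and near 0 in Tie1, and Cdh5 and Ednrb have the strongest colours.

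In that lowest library the 9 genes were not equally low. Cdh5 was at 27% of the median of the other 23 libraries, Ednrb at 32.2%, Aplnr at 43.4%, Vwf at 45.5%, Cldn5 at 45.9% and Kdr at 52.5%. Pecam1 was at 59% and Tek at 72.4%, while Tie1, at 97.6%, was close to its median. The summed CPM of the 24 other endothelial genes in the files was 57% of its median. Type I genes were at 39.9% and type II genes at 32.9%, so alveolar epithelial and endothelial genes were low together. In the same library, heart muscle genes were at 4430% of the median of the others, adipocyte genes at 2140%, fibroblast genes at 308%, smooth muscle genes at 294%, B cell genes at 289%, mesothelial genes at 213% and club and goblet genes at 156%. Red cell genes were at 41.9%. The part of these other tissues in the low endothelial values was not tested.

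The 6-day library at 20 mg/mL with the next lowest mean had another order. Kdr was at 47.3% of the median of the other 23 libraries, Tek at 54.2% and Cldn5 at 58.9%, whereas Aplnr was at 118%. Its type I sum was 65.4% of the median and its type II sum 113%, with macrophage genes at 144%. The part of cell make-up in these values was not tested.

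**Figure D4:**
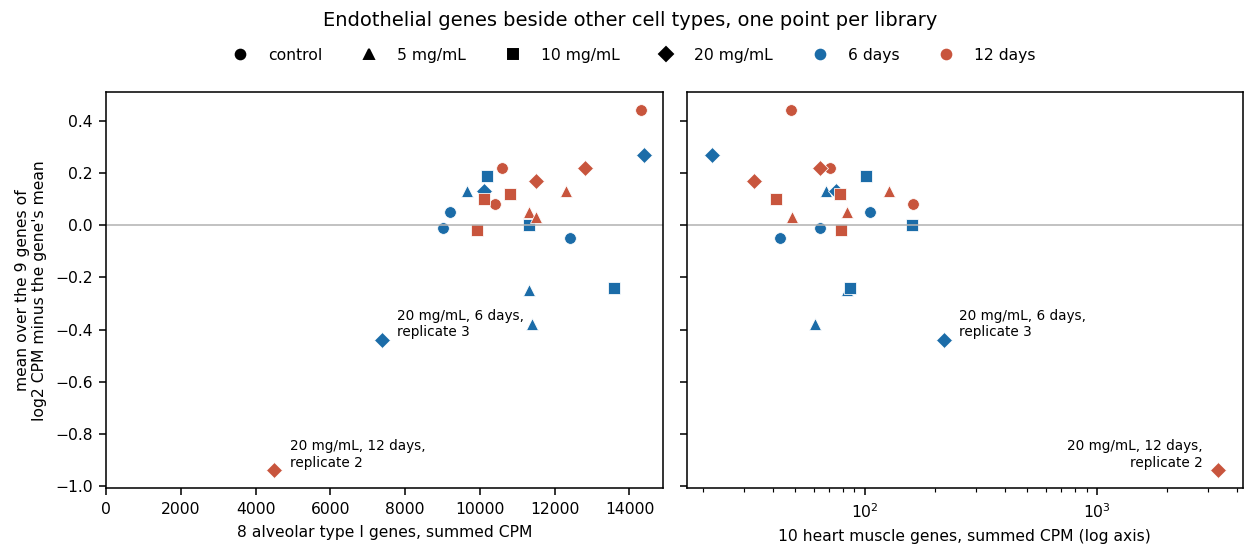
Mean over the 9 endothelial genes of log2 CPM minus the gene's mean (y axis) against the summed CPM of 8 alveolar type I genes (left) and of 10 heart muscle genes (right, log axis), 1 point per library, with shape for dose and colour for day. The 12-day 20 mg/mL replicate 2 has the lowest endothelial mean (-0.94), the lowest type I sum (4490 CPM) and the highest heart muscle sum (3300 CPM).

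The common direction at 20 mg/mL and 12 days depended on this 1 library. With all libraries, 9 of 9 genes had a negative log2 fold change (median -0.29), as had 23 of the 23 other endothelial genes (median -0.22). Without replicate 2, 7 of the 9 were negative with a median of -0.02, and 10 of the 23 with a median of 0.02. Pecam1, Kdr, Tek, Tie1, Vwf and Cldn5 then lay between -0.04 and 0.01, and Ednrb at 0.39. Aplnr (-0.61) and Cdh5 (-0.30) were the 2 members that stayed furthest below 0. At 6 days the split of 2 positive and 7 negative at 20 mg/mL likewise became 6 and 3 without replicate 3, with the median moving from -0.14 to 0.04.

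**Figure D5:**
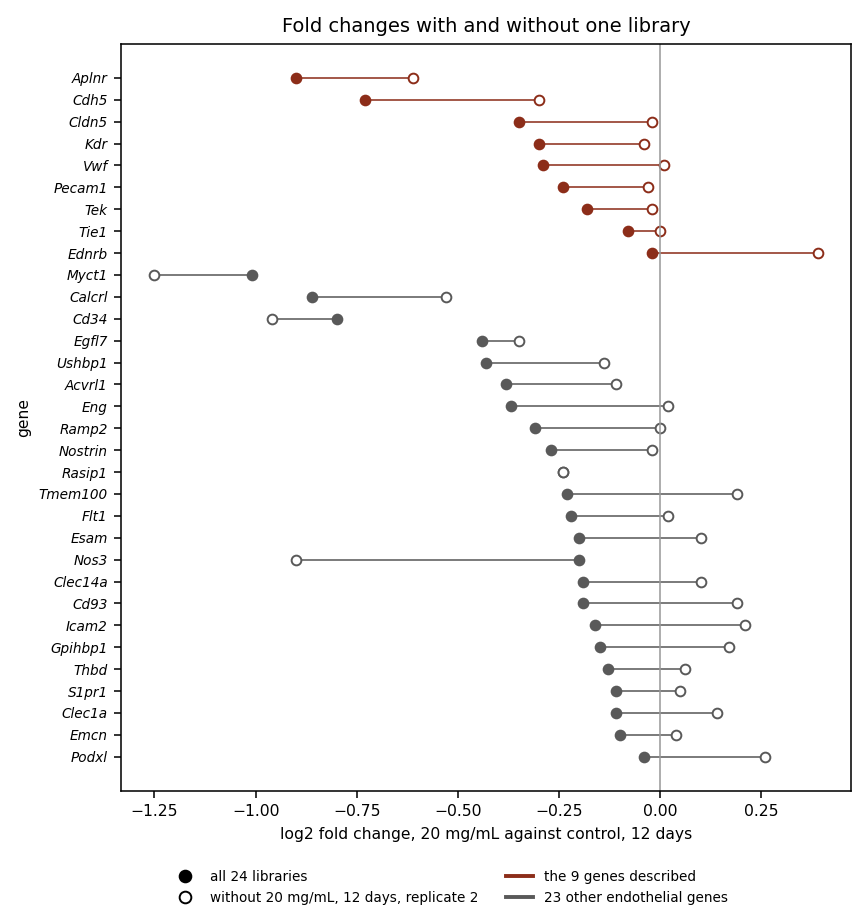
Log2 fold change at 20 mg/mL against control at 12 days (x axis) for the 9 endothelial genes described (red) and 23 other endothelial genes (grey), with all 24 libraries (filled) and without 20 mg/mL replicate 2 (open). Filled points all lie below 0; open points cluster near 0 except for Aplnr, Cdh5, Ednrb and a few of the others, such as Myct1, Cd34 and Nos3.

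Correlations between pairs of the 9 genes were computed over the 24 libraries. Of the 36 pairs, 31 had a positive Pearson r and the median was 0.33. Without the library with the heart muscle genes, 20 of the 36 were positive, 16 were negative and the median was 0.19. By a permutation test with 100000 resamples, 13 pairs had an adjusted p of r below 0.05 over the 36, all of them positive, and 6 had an adjusted p of Spearman's rho below 0.05. Pairs of other genes were not tested, so these counts have no share beside them. The p-values come from all 24 libraries, the one with the heart muscle genes among them. The closest pair was Cdh5 and Ednrb (r = 0.77, permutation p 1.0e-05, the smallest the resamples can give, adjusted 0.00036; rho = 0.71, permutation p 0.00017). Without the 2 libraries farthest from the median of Cdh5 its r was 0.55. Kdr and Cldn5 followed (r = 0.76, permutation p 6.0e-05, adjusted 0.00108; rho = 0.63, permutation p 0.00146; r = 0.50 without 2 libraries). Kdr and Tek had an r of 0.71 (permutation p 0.00024, adjusted 0.00288; rho = 0.58, permutation p 0.00314; r = 0.41 without 2 libraries). Vwf and Aplnr had an r of 0.67 (permutation p 0.0004, adjusted 0.00338; rho = 0.56, permutation p 0.0049; r = 0.48 without 2 libraries).

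The genes fell into looser and tighter pairs rather than 1 block. Kdr was close to Cldn5 and Tek but had an r of -0.01 with Vwf, -0.10 with Tie1 and 0.06 with Aplnr. Tie1 went with Vwf (r = 0.62) and Pecam1 (r = 0.60), and the lowest r of all, -0.14, was that of Tek and Ednrb. The median r was 0.12 within the 12 libraries of day 6 and 0.64 within the 12 of day 12. Without the library with the heart muscle genes it was 0.18 within day 12, so the higher value of day 12 rested on that library. Cdh5 and Ednrb had an r of 0.82 within day 6 and of 0.69 over the 23 libraries, but -0.06 within day 12 without that library. Kdr and Cldn5 had an r of 0.80 within day 6, 0.66 over the 23 libraries and 0.51 within day 12 without it.

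The genes whose log2 CPM was most like the mean of the 9 endothelial genes over the 24 libraries, among 9091 genes with a mean of at least 5 CPM, were Ace (r = 0.89), Esam (0.87), Pkn2 (0.86), Pcdha11 (0.84), Clic5 (0.83) and Lonrf3 (0.83). Ace is the angiotensin-converting enzyme of lung capillaries and Esam an endothelial adhesion molecule, while Clic5 belongs to the type I list. Over the 23 libraries without the one that stood apart, their r lay between 0.67 and 0.77 and their ranks between 25 and 147. Ace ranged from 0.192 to 18.8 CPM (mean 6.51 CPM), so its lowest value was near the limit of detection. Of 55 other genes on the endothelial lists, 21 were among the 455 genes (5%) most like the mean. The median r of the 55 was 0.44 against -0.01 for all genes ranked. These values are for all 24 libraries, with the one that stood apart, and the lists of other cell types were not set beside them.

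The lists around these genes were read next. Of the ligands of these receptors, 10 were tested and 0 were called in any of the 6 dose comparisons. At 20 mg/mL and 6 days, 3 were positive and 7 negative (median -0.53), or 4 and 6 with a median of -0.53 without replicate 3. At 20 mg/mL and 12 days, 4 were positive and 6 negative (median -0.16), or 5 and 5 with a median of -0.00 without the library with the heart muscle genes. Among the 7 negative at 6 days were the genes with the largest SEs of the list. These were Edn1 (-1.65, SE 1.35), Figf (-1.07, SE 1.47) and Vegfb (-1.01, SE 0.81). Vegfc was negative with a smaller SE (-0.64, SE 0.29, unadjusted p 0.0364, edgeR). Vegfc and Angpt2 lay wholly below the controls at 20 mg/mL and 6 days, against 4.67% of all genes, and the other ligands tested overlapped them. Vegfa, the main ligand of Kdr, had log2 fold changes of -0.31, -0.15 and -0.41 at 6 days and -0.22, -0.20 and -0.41 at 12 days. Angpt1, which activates Tek, was at 0.22, 0.08 and 0.49 and then at 0.22, 0.10 and -0.00. Angpt2, its context-dependent antagonist, stood out at 20 mg/mL and 6 days with -1.01 (SE 0.32, unadjusted p 0.00425, adjusted p 1.000, edgeR) and was at 0.10 at 12 days; it is named for that value.

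Of 11 junction partners of Cdh5 and Cldn5, 0 were called at any dose. At 20 mg/mL their medians were -0.05 at 6 days and -0.01 at 12 days, or 0.16 without the library with the heart muscle genes. Esam was at -0.06 and -0.20, Jup (plakoglobin, which binds cadherin tails) at -0.29 and 0.06, and Tjp1 (the scaffold ZO-1) at -0.04 and -0.04. Of 13 genes of endothelial activation and clotting control, 0 were called. Their medians at 5, 10 and 20 mg/mL were 0.39, 0.06 and -0.23 at 6 days and 0.00, 0.08 and 0.10 at 12 days. Leaving out replicate 2 made the last 0.06, and at 6 days and 20 mg/mL leaving out replicate 3 made the median of these genes -0.18 and that of the junction partners 0.00. Thbd (thrombomodulin) lay between -0.33 and 0.14 over the 6 comparisons, and Icam1, a leukocyte adhesion molecule, between -0.38 and 0.14. Procr, named for its value, was at 1.63 at 5 mg/mL and 6 days (SE 0.43, unadjusted p 0.000985, adjusted p 0.896, edgeR). It was at 0.58 and 0.83 at 10 and 20 mg/mL that day. At 5 mg/mL and 6 days Procr, F3, Sele, Selp and Plat lay wholly above the controls, against 4.17% of all genes. The other genes of the list overlapped the controls there. The SEs of F3 and Sele were 1.02 and 0.94. From the 6-day to the 12-day controls the log2 fold changes were 1.28 for Procr, 1.17 for F3, 0.94 for Sele, 0.54 for Selp and -0.19 for Plat, with overlapping ranges. Replicates 1 and 2 of 5 mg/mL at 6 days were also among the 8 libraries that detected fewest genes. The part of these in the separation was not tested.

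Transcription factors of endothelium gave 0 calls of 12 tested. At 20 mg/mL and 6 days 5 were positive and 7 negative (median -0.15), or 6 and 6 (median -0.05) without replicate 3. At 20 mg/mL and 12 days 4 were positive and 8 negative (median -0.01). Without the library with the heart muscle genes the 12-day split was 10 and 2 (median 0.12). Ets1, of the family whose core is marked in the printed promoters, had log2 fold changes of -0.10, -0.17 and 0.01 at 6 days and of -0.48, -0.54 and -0.57 (SE 0.21 each) at 12 days. At 12 days all 3 exposed libraries lay below all 3 controls at each dose, with unadjusted p-values of 0.0293, 0.0158 and 0.012 and adjusted p-values of 1.000, 1.000 and 0.998 (edgeR). Ets1 was thus another of the 49 genes with all 9 exposed libraries of day 12 below the controls. The 3 doses share these controls, which lay wholly above the 6-day controls, as in 4.71% of all genes. The log2 fold change between the Ets1 controls was 0.61 (SE 0.21, unadjusted p 0.00781, edgeR). Erg and Fli1, of the same family, did not share the 12-day direction of Ets1. Erg was at 0.34, 0.11 and -0.01 that day, and Fli1 at 0.33, 0.73 and 0.58 (SE 0.44 each). Klf4, a shear-responsive factor, was at -0.59 (SE 0.22, unadjusted p 0.0145, adjusted p 1.000, edgeR) at 20 mg/mL and 6 days and at -0.01 at 12 days. Mecom was at -0.41 and -0.01. 

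The capillary subtype lists gave 0 calls in the 6 dose comparisons. Of 8 aerocyte genes, 3 were positive and 5 negative at 20 mg/mL and 6 days (median -0.11) and 2 and 6 at 12 days (median -0.13). Of 6 general capillary genes, 3 and 3 were positive and negative at 6 days (median 0.10) and 2 and 4 at 12 days (median -0.17). Without the library with the heart muscle genes, the 12-day split was 5 and 3 for the aerocyte list (median 0.03) and 4 and 2 for the general capillary list (median 0.18). Plvap, the diaphragm protein of fenestrated and general capillaries, was at -0.25 and -0.46, and Emp2, a membrane protein of gas-exchange cells, at 0.04 and -0.02. The difference between the 2 lists was not tested. Arterial (7 genes), venous (4) and lymphatic (4) lists had medians of -0.11, 0.30 and 0.16 at 20 mg/mL and 12 days, or -0.08, 0.27 and -0.02 without that library. The smooth muscle list that day was positive in 7 of 7 genes with a median of 0.87, and in 3 of 7 with a median of -0.03 without that library.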

How the data were processed

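RNA of 24 rat lung samples was measured by sequencing. Total RNA extracted with Trizol (500 ng) entered a Lexogen QuantSeq preparation, per the labels' protocols. The labels do not settle whether the reads come from transcript ends or whole transcripts, so levels are not compared between genes. Bowtie2, bedtools and build rn6 are named in the submitters' processing notes. The versions of these tools, the annotation and the strand setting were not given in the sources used here. For every library the authors deposited raw counts of reads by gene symbol, checked here to be whole numbers with unequal totals. Of 17048 lines per file, the 167 that repeat a symbol (0.982% of counts) were dropped, keeping the first. No line lacked a gene name.

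The 9 genes and all gene lists were chosen with earlier results of these data known. Counts were filtered with filterByExpr, scaled by TMM (factors 0.805 to 1.12) and fitted with edgeR 4.0.16 (quasi-likelihood, R 4.3.3) as 8 group means over all 24 libraries, with 16 residual degrees of freedom. Two-sided p-values were adjusted (Benjamini-Hochberg, 11426 genes) and called below 0.05. The common biological coefficient of variation was 0.335. Log2 CPM used a prior count of 2. Total counts were 4.80e+06 to 1.11e+07 (median 6.84e+06). Correlations were tested by permutation with scipy 1.17.1. Simulated counts with known changes served to test the fit.

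From each list the 3 genes with the highest mean CPM were to be named, with any gene past the threshold and the 6 genes most like the mean of the 9; other names were chosen after their values were seen. Alternatives were RLE and upper-quartile scaling, no filter, DESeq2 1.42.0, limma 3.58.1 voom with quality weights, the compared groups alone, the replicate number as a block, removal of the 8 libraries with the fewest genes detected at equal depth, that number as a covariate, exclusion of ribosomal RNA and globin genes, scaling without heart and airway genes, and removal of each library in turn. After the values were seen, the counts of signs (all lists at 20 mg/mL) and the correlations were also recomputed without replicate 2 of 20 mg/mL at 12 days, the counts at 6 days without replicate 3 of 20 mg/mL, and the correlations without those 8 libraries.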

Additional observations from a re-analysis of the deposited data

How the results depend on the processing

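Of 65 fold changes of the 9 endothelial genes, 42 kept their sign under all 35 alternatives, 23 did not, and 0 were called under any. The 65 were every comparison of a dose with its control and a selection of the slopes, control differences and differences between days. Of the 35 alternatives, 24 removed a single library each. Removing a library outside the groups compared reaches a value only through the shared filter, scaling and spread, so a kept sign there says little. All 23 that did not keep their sign were comparisons of a dose with its control. Where a value moved, the cause was not tested. Signs turned as follows. Without the 8 libraries that detected fewest genes, at 6 days: Pecam1 0.29, Cdh5 0.30 and Kdr -0.01 at 5 mg/mL, and Pecam1 0.11 and Tie1 0.05 at 10 mg/mL. Replicates 1 and 2 of both these doses and control replicate 1 of day 6 were among the 8. Each of these values thus sets replicate 3 alone against control replicates 2 and 3. With detected genes as a covariate: Kdr -0.06 at 5 mg/mL and 6 days, and Kdr 0.01, Tie1 -0.06 and Vwf -0.02 at 10 mg/mL and 12 days. With limma voom: Ednrb -0.04 at 5 mg/mL, Pecam1 0.08 and Cdh5 -0.10 at 10 mg/mL, and Kdr 0.07 and Cldn5 0.03 at 20 mg/mL, all at 6 days, and Tie1 -0.06 at 10 mg/mL and Ednrb 0.01 at 20 mg/mL and 12 days. With upper-quartile scaling Tek and Tie1 were at -0.00 at 10 mg/mL and 12 days. Removing single libraries gave, at 5 mg/mL and 6 days, Pecam1 -0.32 to 0.19, Cdh5 -0.35 to 0.28, Kdr -0.07 to 0.39, Tek -0.37 to 0.10 and Ednrb -0.14 to 0.57. At 10 mg/mL and 6 days it gave Pecam1 -0.13 to 0.15, Cdh5 -0.16 to 0.34 and Ednrb -0.03 to 0.53, and at 20 mg/mL Pecam1 -0.33 to 0.04, Kdr -0.37 to 0.12, Vwf -0.30 to 0.18, Aplnr -0.21 to 0.02 and Cldn5 -0.41 to 0.08. At 12 days it gave, at 10 mg/mL, Pecam1 -0.03 to 0.14, Kdr -0.20 to 0.01, Tek -0.12 to 0.16, Tie1 -0.14 to 0.14, Vwf -0.21 to 0.28 and Ednrb -0.43 to 0.05, and at 20 mg/mL Tie1 -0.20 to 0.04, Vwf -0.53 to 0.01 and Ednrb -0.42 to 0.39.

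Counts of called genes over all 11426 were 0 or 1 in the edgeR fit. DESeq2 called 2 at 5 mg/mL and 3 at 20 mg/mL (6 days), 1, 1 and 4 at the 3 doses of 12 days, 7 and 11 for the slopes of 6 and 12 days, and 51 for any difference. Limma voom called 5 at 10 mg/mL and 2 at 20 mg/mL (6 days), 2 at 20 mg/mL (12 days), 2 and 3 for the slopes and 10 for any difference. Without the 8 libraries the counts were 3 at 20 mg/mL (6 days), 1 at 10 mg/mL (12 days), 2 and 1 for the slopes and 2 for any difference. The compared groups alone gave 2 at 10 mg/mL and 1 at 20 mg/mL (12 days) and 0 and 1 for the slopes. No filter gave 1 at 20 mg/mL (6 days) and 16 for any difference, RLE scaling 1, and the covariate 1 and 2. Removing single libraries gave 0 to 2 at 5 mg/mL and at 20 mg/mL (6 days), 0 to 2 and 0 to 1 for the slopes of 6 and 12 days, and 0 to 17 for any difference. The replicate block gave 1 gene at 20 mg/mL (6 days) and 1 for the slope of 6 days, and changed no call of the 9 genes. The labels do not say what a replicate number shares. Deviations of same-numbered libraries correlated from -0.184 to 0.59 at 6 days (median 0.173, 10 of 18 pairs over 0.1) and from -0.156 to 0.204 at 12 days (median 0.02, 4 of 18). For differently numbered libraries the medians were -0.105 and -0.019, and 8 of 12 libraries at 6 days and 5 of 12 at 12 days were closest to their own number. Since not every pair exceeded 0.1, the numbers were not used as a pairing. The median correlation of 0.33 became 0.12 within day 6, 0.64 within day 12, 0.18 within day 12 and 0.19 over all days without replicate 2 of 20 mg/mL, and 0.51 without the 8 libraries. Depth limited little here: the lowest count of any of the 9 genes was 117 reads, and the spread between replicates set the intervals.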
